A study of Mus musculus with 4 samples.

Results

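The genes described here are 36 targets of the transcription factor p53 and members of the Bcl2 family, taken by symbol from a fixed list, and 35 of them had a mean level of at least 1 FPKM (sequenced fragments per unit of transcript length and of library size) over the 4 libraries. They are 35 of 11350 genes at that level. RNA came from primary epidermal keratinocytes of newborn mice, at passage 0, grown in low-calcium E-media over mitotically inactivated J2-3T3 cells, a mouse fibroblast feeder line, with no further treatment. The feeder cells were removed and the keratinocytes were harvested before confluence. There were 2 libraries of genotype control and 2 of genotype Ovol2-deficient. Ovol2 encodes a zinc-finger transcription factor of epithelia, and the labels used here name neither the allele nor what drove its loss, nor the part of the gene affected. Nothing in the labels says whether the 2 libraries of a group came from separate animals, so p-values measure only the spread between these samples, which may be technical.

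p53, encoded by Trp53 in the mouse, is held at a low protein level by the ubiquitin ligase Mdm2, which is itself a p53 target, so that the pair forms a feedback loop. When DNA is damaged or a cell is stressed, the p53 protein is stabilised and raises transcription of genes that halt the cycle, repair DNA or start apoptosis. In the mitochondrial route to apoptosis, BH3-only proteins such as Puma (Bbc3) and Noxa (Pmaip1) antagonise the survival proteins Bcl2, Bcl-xL (Bcl2l1) and Mcl1, and Bax and Bak1 then permeabilise the outer membrane. Because p53 is controlled largely at the level of its protein, its own transcript is not a readout of its activity. In the epidermis, basal keratinocytes also express the related factor p63.

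The RefSeq promoter table (GRCm38.p6, the build of mm10) held windows of 300 bases, from 250 before to 50 after a transcription start, for 28 of the 36 genes. Those without a window were Zmat3, Rrm2b, Xpc, Ddb2, Tnfrsf10b, Pmaip1, Bik and Trp53inp1. The p53 half-site consensus, a palindrome of 10 bases that reads the same on both strands, was found in windows of 8 of the 28 genes (28.6%), against 9.55% of the 27025 genes in the whole table. The lines below show these 8 matches, since the list is named for p53 binding. Each is written 5′ to 3′ on the strand of its gene with the half-site in capitals and 10 flanking bases on either side.
Aen, chr7:78895927-78895956, plus strand: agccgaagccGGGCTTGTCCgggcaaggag
Bax, chr7:45467080-45467109, minus strand: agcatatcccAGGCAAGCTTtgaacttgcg
Ccng1, chr11:40755452-40755481, minus strand: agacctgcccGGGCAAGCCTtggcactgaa
Gadd45a, chr6:67037428-67037457, minus strand: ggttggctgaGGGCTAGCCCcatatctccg
Mdm2, chr10:117710925-117710954, minus strand: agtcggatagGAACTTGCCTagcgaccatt
Polk, chr13:96519399-96519428, minus strand: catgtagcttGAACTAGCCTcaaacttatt
Sesn1, chr10:41887256-41887285, plus strand: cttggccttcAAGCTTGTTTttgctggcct
Trp53, chr11:69580274-69580303, plus strand: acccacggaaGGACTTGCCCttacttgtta
The matches began between 40 bases (Gadd45a) and 231 bases (Polk) before a start. Aen has 2 starts in the table, and its match lies 121 bases before one and just after the other. A full p53 element is made of a pair of half-sites, and 0 of the 28 genes had 2 exact matches in any window. Half-sites that depart from the consensus were not searched for, so this count does not show that full elements are absent. The best studied elements of Mdm2 and Gadd45a lie in introns, outside these windows, so a match here is a description of the letters and not of binding.

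Ovol2 itself was listed at 2.68 and 2.14 FPKM in the controls and 1.45 and 0.941 FPKM in the deficient libraries, lower in both but short of the threshold in limma (log2 fold change -0.64, adjusted p = 0.129). Keratinocyte markers were present in all 4 libraries, with summed levels of 6696 and 7077 FPKM in the controls and 5524 and 6414 FPKM in the deficient libraries. Of these 8 markers, 7 had log2 fold changes below 0 (median -0.24) and 0 passed in limma. The groups did not overlap, in the lower direction, for 5 (62.5%, beside 24.0% of all tested genes). Markers of other cells moved too. The 16 fibroblast or feeder markers summed to 388.3 and 400.5 FPKM in the controls and 548.9 and 576.2 FPKM in the deficient libraries. All 13 of those tested lay higher in both deficient libraries without overlap, beside 24.1% of all tested genes. Of the 13, Fbln2, Loxl1 and Pcolce passed in limma (23.1%, beside 0.837% of all tested genes called higher). Each lost the call in 7 to 9 of 13 alternative settings. The authors' deposited table called 9 of 14 fibroblast or feeder markers, 1 of 7 melanocyte markers (Dct) and 1 of 8 suprabasal genes (Sprr1b) higher. It called 2 of 8 keratinocyte markers lower (Itga6 and Col17a1). Of all its genes 2.33% were called higher and 2.10% lower. Lum was at 0 in control 2 and at or below 0.0782 FPKM in the others. The 7 melanocyte markers summed to 62.2 and 67.7 FPKM against 90.8 and 84.2 FPKM, and 9 suprabasal differentiation genes to 1584 and 1082 FPKM against 2484 and 1682 FPKM. The 6 immune markers summed to 14.45 and 14.50 FPKM in the controls and 13.1 and 12.2 FPKM in the deficient libraries. Most of that was Cd68 (12.3 and 10.3 against 11.3 and 10.3 FPKM), and Cd52 was at 0 throughout. The 4 endothelial markers summed to 3.29 and 3.73 FPKM against 4.32 and 3.24 FPKM, from Pecam1 and Kdr in the main, with Cdh5 at 0 throughout. The part of these other cells in the differences below was not tested, and in bulk RNA fewer cells of a type and less RNA per cell cannot be told apart.

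Most p53 target and Bcl2 family genes differed little between Ovol2-deficient and control keratinocytes, and 26 of the 35 tested differences were above 0. Gadd45a, a stress sensor that binds PCNA and cell cycle kinases, was the 1 member called higher in limma (1.52-fold). Its adjusted p in limma was at the threshold (0.049994), and several alternative settings lost the call. The death receptor gene Fas, Trp53inp1, Mdm2, the BH3-only gene Bid and the kinase gene Plk3 were 1.29-fold to 1.67-fold higher by their means. They did not pass in limma, while the authors' deposited table called Gadd45a and each of these except Bid higher. Gadd45b had the largest negative difference, at 0.607 times its control mean, with overlapping groups and 1 high control, and it did not pass either. The executioners of the mitochondrial route, Bax, Bak1 and Apaf1, and the survival gene Bcl2 stood at 0.917 to 1.024 times their control means.

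In limma, on log2(FPKM + 1) with Benjamini-Hochberg adjustment over 11350 genes at a threshold of 0.05, 1 of 35 members was called higher and 0 lower. Among all tested genes 1.35% were called, 0.837% higher and 0.511% lower, so a count of 1 in 35 is close to the background. Which members were called depended on the library left out, as did the number called over all tested genes. At an unadjusted p under 0.05 there were 9 of 35 members (25.7%), all higher, beside 17.4% of all genes in either direction. The groups did not overlap for 17 of 35 members in the higher direction (48.6%, beside 24.1% of all genes) and for 1 in the lower direction (2.86%, beside 24.0%). With 2 libraries against 2, an exact permutation test cannot give a two-sided p under 0.333. Of the 35 log2 fold changes 26 were above 0, or 74.3%, compared with 49.6% of all tested genes, and the median was 0.14 against -0.001. The authors' deposited table called 5 of the 35 genes higher and 0 lower, at an adjusted p under 0.05, where 4.43% of its genes were called, 2.33% higher and 2.10% lower. Those 5 were Mdm2, Gadd45a, Plk3, Fas and Trp53inp1. The 2 analyses use the same 4 libraries.

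**Figure D1:**
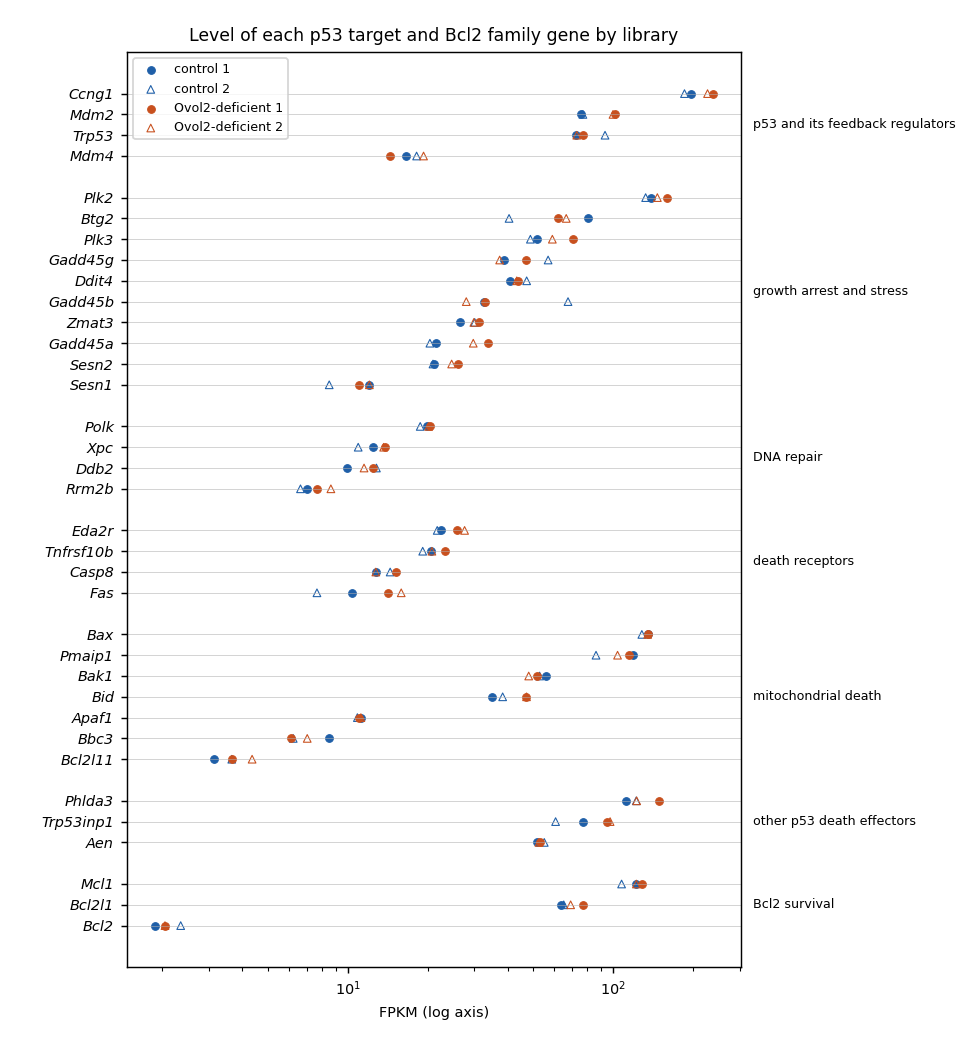
Level of the 35 genes with a mean of at least 1 FPKM in each library, on a log axis in FPKM, grouped by role. Blue marks controls, orange marks Ovol2-deficient libraries, circles are library 1 and triangles library 2. Levels run from about 2 FPKM for Bcl2 to above 180 FPKM in every library for Ccng1, and the colours are apart for genes such as Mdm2, Gadd45a and Fas.

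Levels spanned a wide range within each role. In the controls the highest mean was that of Ccng1 (190.8 FPKM), followed by Plk2 (136.0), Bax (132.1), Phlda3 (117.2), Mcl1 (114.6) and Pmaip1 (102.7). The lowest of the 35 were Bcl2 (2.11) and Bcl2l11 (3.39), and then Rrm2b (6.81) and Bbc3 (7.36). Just inside the limit of 1 FPKM lay Bcl2, with a mean of 2.08 over all libraries, and just outside it Bik, a BH3-only gene listed at 0 in 3 libraries and at 0.0896 FPKM in Ovol2-deficient library 2. Among survival genes, Mcl1 and Bcl2l1 thus stood far above Bcl2, and among the BH3-only genes Pmaip1 stood far above Bbc3 and Bcl2l11.

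p53 and its regulators did not share a direction. Trp53 stood at 72.7 and 93.2 FPKM in the controls and 77.3 and 72.9 FPKM in the deficient libraries. Control 2 was high and the other three lay close together, so the groups overlapped (log2 fold change -0.13, 95% interval -0.43 to 0.17, adjusted p = 0.674 in limma). Without control 2 the difference was 0.05. Mdm4, the Mdm2 relative that inhibits p53 without being a ligase on its own, stood at 16.5 and 18.2 FPKM in the controls and 14.4 and 19.3 FPKM in the deficient libraries, with the deficient pair on either side of the controls (log2 fold change -0.05, adjusted p = 0.897 in limma).

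The feedback targets of this group lay higher. Mdm2 (chromosome 10, 117688875 to 117710758, minus strand) stood at 75.7 and 76.9 FPKM in the controls and at 101.5 and 99.9 FPKM in the deficient libraries. The replicates of each group lay close together, with means of 76.3 ± 0.879 and 100.7 ± 1.16 FPKM (SD, n = 2 each), while the groups stood apart by 1.32-fold (log2 fold change 0.40, SE 0.09, 95% interval 0.19 to 0.60), and the adjusted p in limma was 0.0728. In the authors' deposited table its adjusted p was 0.0196, with a log2 fold change of 0.34. With 1 library left out, its log2 fold change was 0.38 to 0.41. Ccng1, a cyclin that recruits a phosphatase to Mdm2, stood at 195.9 and 185.7 FPKM against 238.1 and 226.9 FPKM. Both deficient values exceeded both controls (log2 fold change 0.28, SE 0.09, adjusted p = 0.178 in limma).

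Within the growth arrest and stress arm the Gadd45 genes, small stress proteins that act on the p38 and JNK kinases, pointed different ways. Gadd45a (ENSMUSG00000036390.8, chromosome 6, 67035096 to 67037457, minus strand) stood at 21.4 and 20.4 FPKM in the controls and 33.6 and 29.7 FPKM in the deficient libraries. The groups did not overlap, and each pair lay closer together than the groups did, with means of 20.9 ± 0.722 and 31.7 ± 2.78 FPKM (SD, n = 2 each; log2 fold change 0.58, SE 0.10, adjusted p = 0.049994 in limma). That value sits at the threshold: over 13 alternative settings its adjusted p was 0.0137 to 0.254 and the call was lost in 8, among them those without control 2 (0.0910), without Ovol2-deficient library 1 (0.254) and without library 2 (0.183). The log2 fold change stayed at 0.49 to 0.66 in all 13.

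Gadd45b stood at 32.7 and 67.6 FPKM in the controls and 32.9 and 27.95 FPKM in the deficient libraries. Control 2 alone was high, and control 1 matched Ovol2-deficient library 1 (log2 fold change -0.62, SE 0.29, adjusted p = 0.343 in limma). Without control 2 it was -0.10, and without control 1 it was -1.13 and passed in limma (adjusted p = 0.00789). Gadd45g stood at 38.9 and 56.9 FPKM against 46.8 and 37.3 FPKM, again with control 2 highest and with overlap (log2 fold change -0.17, adjusted p = 0.717 in limma).

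Btg2, an antiproliferative gene induced early after stress, had the opposite split between the controls, at 80.4 FPKM in control 1 and 40.5 in control 2, with 61.8 and 66.6 FPKM in the deficient libraries. The deficient pair lay between the controls. Its log2 fold change was 0.16 with all libraries, -0.32 without control 2 and 0.65 without control 1, where it passed in limma (adjusted p = 0.0295). For Btg2 and Gadd45b the direction or the size therefore rested on which control was used. Controls lay further apart than the deficient libraries for 22 of the 35 members (62.9%), beside 53.2% of all tested genes.

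The polo-like kinase genes lay higher in both deficient libraries. Plk3, a stress-activated kinase, stood at 51.7 and 48.8 FPKM in the controls and 70.5 and 59.0 FPKM in the deficient libraries (log2 fold change 0.36, SE 0.11, adjusted p = 0.160 in limma and 0.0208 in the authors' deposited table). Without Ovol2-deficient library 1 its log2 fold change was 0.23. Plk2 stood at 139.4 and 132.6 FPKM against 159.8 and 146.8 FPKM, a smaller gap (log2 fold change 0.17, adjusted p = 0.417 in limma).

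Sestrins restrain the growth kinase mTORC1. Sesn2 stood at 21.2 and 20.9 FPKM in the controls and 25.9 and 24.6 FPKM in the deficient libraries, without overlap (log2 fold change 0.25, adjusted p = 0.214 in limma). Sesn1 stood at 12.0 and 8.51 FPKM against 11.03 and 12.1 FPKM, where control 2 was the low library and the groups overlapped (log2 fold change 0.17, and -0.05 without control 2). Zmat3, an RNA-binding protein that p53 induces, stood at 26.5 and 30.1 FPKM against 31.1 and 29.9 FPKM (log2 fold change 0.11). Ddit4, another mTORC1 inhibitor, stood at 40.7 and 47.2 FPKM against 43.8 and 43.3 FPKM, with the deficient pair inside the range of the controls (log2 fold change -0.01).

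The DNA repair arm of 4 genes had 4 log2 fold changes above 0, from 0.07 to 0.23, and 0 of 4 passed in limma or had an unadjusted p under 0.05. Rrm2b, the p53-induced subunit of ribonucleotide reductase, stood at 6.99 and 6.63 FPKM in the controls and 7.66 and 8.63 FPKM in the deficient libraries (log2 fold change 0.23, 95% interval -0.04 to 0.49). Xpc, which recognises lesions in nucleotide excision repair, stood at 12.4 and 10.9 FPKM against 13.8 and 13.6 FPKM (log2 fold change 0.22, 95% interval -0.03 to 0.46). Neither pair of groups overlapped, and the adjusted p in limma was 0.364 for Rrm2b and 0.352 for Xpc. Ddb2, its partner in recognising ultraviolet damage, stood at 9.94 and 12.8 FPKM against 12.4 and 11.5 FPKM, with overlap (log2 fold change 0.07). Polk, a translesion polymerase, stood at 19.8 and 18.7 FPKM against 20.4 and 20.2 FPKM (log2 fold change 0.07).

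Among the death receptors, Fas had the largest positive difference of all members. Fas (chromosome 19, 34290666 to 34327772, plus strand) stood at 10.4 and 7.65 FPKM in the controls and 14.2 and 15.9 FPKM in the deficient libraries. Both deficient values were above both controls, and the controls were further apart than the deficient pair, with means of 9.02 ± 1.93 and 15.1 ± 1.17 FPKM (SD, n = 2 each; 1.67-fold, log2 fold change 0.69, SE 0.15, 95% interval 0.35 to 1.04). Its adjusted p was 0.0703 in limma and 0.0433 in the authors' deposited table. Without control 2, the lower control, its log2 fold change was 0.49, and without control 1 it was 0.89 and passed in limma (adjusted p = 0.0172).

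Eda2r, the receptor for ectodysplasin A2, stood at 22.5 and 21.7 FPKM in the controls and 25.8 and 27.5 FPKM in the deficient libraries, without overlap (log2 fold change 0.26, SE 0.09, adjusted p = 0.209 in limma). Tnfrsf10b, the TRAIL receptor, stood at 20.5 and 19.2 FPKM against 23.3 and 20.7 FPKM, the lower deficient value just above the higher control (log2 fold change 0.14). Casp8, the initiator caspase that Fas and Tnfrsf10b recruit, stood at 12.8 and 14.4 FPKM against 15.2 and 12.8 FPKM. Its groups overlapped (log2 fold change 0.03, 95% interval -0.25 to 0.31).

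In the mitochondrial route the BH3-only gene Bid was the 1 gene that lay higher without overlap. Bid, which caspase 8 cleaves to link the receptors to mitochondria, stood at 34.9 and 38.3 FPKM in the controls and 47.1 and 47.2 FPKM in the deficient libraries. The deficient pair was nearly identical and above both controls (log2 fold change 0.36, SE 0.09, 95% interval 0.14 to 0.57, adjusted p = 0.108 in limma). With 1 library left out its log2 fold change was 0.29 to 0.42, and in the authors' deposited table its adjusted p was 0.240.

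The BH3-only genes Bbc3, Pmaip1 and Bcl2l11 had smaller differences and overlapping groups. The intervals of Pmaip1 and Bcl2l11 (-0.14 to 0.51) include the log2 fold change of Bid (0.36), and that of Bbc3 does not. Whether these genes differ from Bid was not tested. Bbc3 stood at 8.50 and 6.23 FPKM in the controls and 6.11 and 7.03 FPKM in the deficient libraries (log2 fold change -0.13, 95% interval -0.50 to 0.23). Pmaip1 stood at 119.2 and 86.2 FPKM against 114.6 and 103.9 FPKM, with the deficient pair between the controls (log2 fold change 0.11, 95% interval -0.26 to 0.47). Bcl2l11, which encodes Bim, stood at 3.13 and 3.65 FPKM against 3.65 and 4.36 FPKM, where a deficient library and a control met (log2 fold change 0.19).

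The pore-forming and apoptosome genes stood close to their control levels. Bax stood at 135.9 and 128.3 FPKM in the controls and 135.7 and 135.0 FPKM in the deficient libraries (log2 fold change 0.04, 95% interval -0.17 to 0.24). Apaf1, the scaffold that activates caspase 9, stood at 11.2 and 10.9 FPKM against 11.1 and 11.2 FPKM (log2 fold change 0.01, 95% interval -0.22 to 0.24). Bak1 was the 1 member with both deficient values below both controls, at 55.7 and 52.8 FPKM against 51.5 and 48.1 FPKM (log2 fold change -0.12, adjusted p = 0.557 in limma). The intervals of Bax and Apaf1 reach 0.24 on the log2 scale, so they do not show that the levels were equal.

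Of the other p53 effectors, Trp53inp1, a cofactor that favours p53-dependent death and autophagy, stood at 76.8 and 60.7 FPKM in the controls and 94.5 and 97.4 FPKM in the deficient libraries. The groups did not overlap and control 2 was the lowest library (log2 fold change 0.48, SE 0.12, adjusted p = 0.106 in limma and 0.00965 in the authors' deposited table). Without control 2 its log2 fold change was 0.32, and without control 1 it was 0.65 and passed in limma (adjusted p = 0.0295). Phlda3, which blocks Akt at the membrane, stood at 112.2 and 122.2 FPKM against 149.4 and 122.7 FPKM. Ovol2-deficient library 1 alone was high and library 2 lay just above control 2 (log2 fold change 0.21, and 0.07 without library 1). Aen, a nuclease, stood at 51.5 and 55.0 FPKM against 53.1 and 52.5 FPKM (log2 fold change -0.01).

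The survival genes differed by at most 1.14-fold by their means. Bcl2l1 stood at 63.8 and 65.1 FPKM in the controls and 77.2 and 69.1 FPKM in the deficient libraries, without overlap (log2 fold change 0.18, 95% interval -0.05 to 0.40, adjusted p = 0.398 in limma). Mcl1 stood at 121.6 and 107.6 FPKM against 128.0 and 122.3 FPKM, where control 1 and Ovol2-deficient library 2 almost touched (log2 fold change 0.13). Bcl2 stood at 1.87 and 2.34 FPKM against 2.05 and 2.05 FPKM, inside the range of the controls (log2 fold change -0.02).

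**Figure D2:**
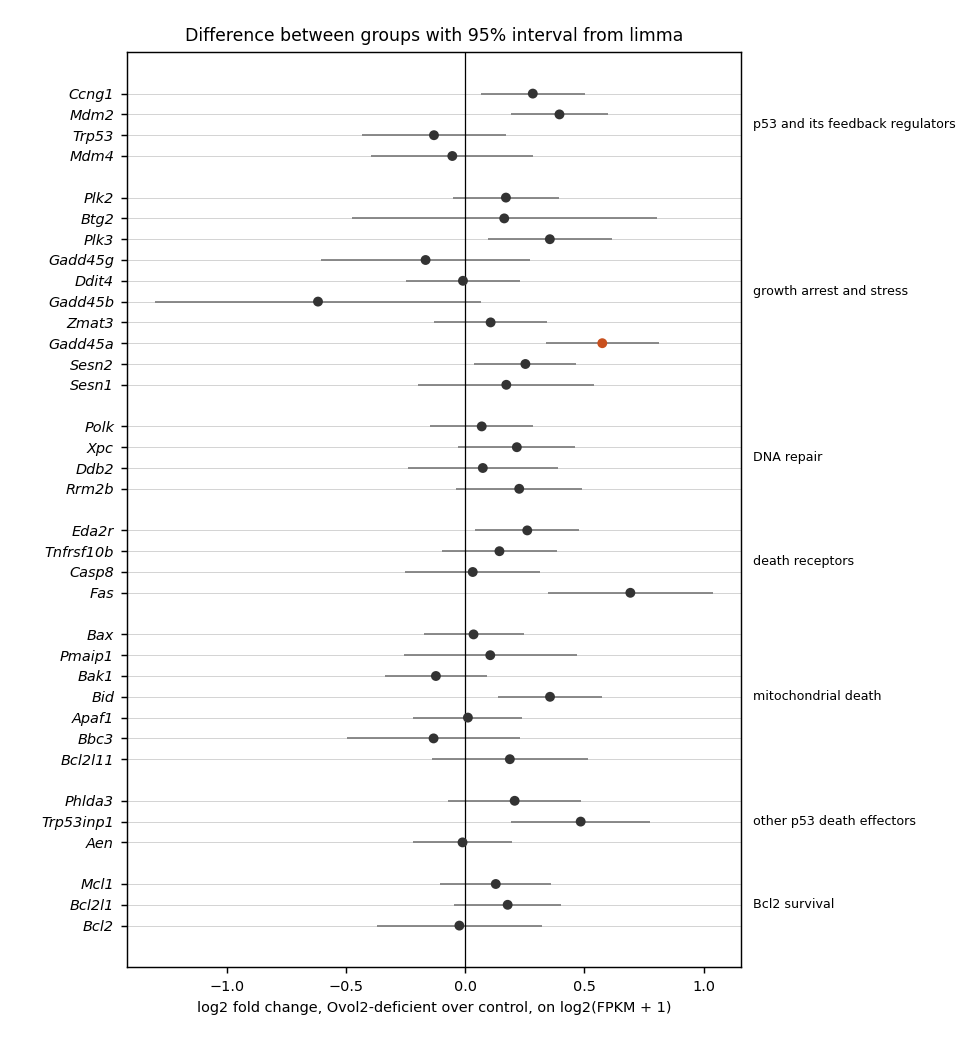
Difference between Ovol2-deficient and control libraries for the 35 genes, as the log2 fold change on log2(FPKM + 1) with its 95% interval from limma, grouped by role. Orange marks Gadd45a, the 1 gene with an adjusted p under 0.05; the intervals of 9 genes, Gadd45a among them, lie wholly above 0 and none lies wholly below it.

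Set side by side, the arms differed little in their medians. The median log2 fold change was 0.17 for the 10 growth arrest and stress genes (1 called higher, 4 or 40% higher without overlap), 0.15 for the 4 repair genes (0 called, 3 or 75% higher without overlap) and 0.12 for the 14 tested genes of the death arm (0 called in limma, 4 with an unadjusted p under 0.05, 6 or 42.9% higher and 1 or 7.14% lower without overlap). Over all tested genes 24.1% lay higher and 24.0% lower without overlap, and 17.4% had an unadjusted p under 0.05 in limma (28.6% in the death arm). That share was 30% (3 of 10) for arrest and stress and 50% (2 of 4) for p53 and its regulators. It was 0 for the repair and survival genes. Inside the death arm the median was 0.20 for the 4 genes of the receptor branch, 0.04 for the 7 mitochondrial genes and 0.21 for the 3 other effectors, which became 0.07 on leaving out Ovol2-deficient library 1 and 0.35 on leaving out library 2. The mitochondrial median was -0.0093 without control 2 and 0.076 without control 1. The median was 0.13 for the 3 survival genes and 0.11 for p53 and its regulators (0.20 without Ovol2-deficient library 1). The difference between arms was not tested, and each rests on few genes measured in the same 4 libraries.

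By library, the medians of each arm other than the mitochondrial one were above both controls in both deficient libraries. The repair genes stood at 0.04 and -0.04 in controls 1 and 2 and at 0.14 in each deficient library, on the log2 scale relative to the control mean. The receptor branch stood at 0.04 and -0.04 against 0.22 and 0.18. The mitochondrial genes did not separate, at 0.04 and -0.04 against 0.04 and 0.03. Over all tested genes the deficient libraries stood at 0.02 and -0.02. Summed levels of the 3 survival genes were 187.3 and 175.1 FPKM in the controls and 207.2 and 193.5 FPKM in the deficient libraries, and those of the 8 mitochondrial genes 368.6 and 326.4 FPKM against 369.7 and 356.8 FPKM.

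**Figure D3:**
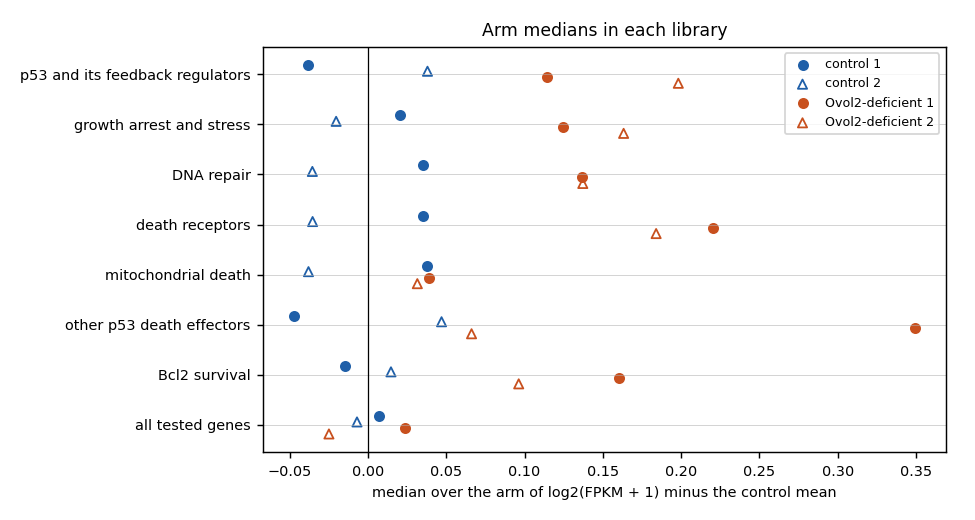
Median over each arm of log2(FPKM + 1) minus the control mean, for each of the 4 libraries, with all 11350 tested genes at the bottom. Blue marks controls and orange Ovol2-deficient libraries; the orange points lie to the right of the blue ones in each arm except the mitochondrial one, where 3 of the 4 points lie between 0.03 and 0.04.

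Pooled, other genes of the pathway, from lists that do not include the members, had 35 of 70 log2 fold changes above 0 (median 0.005). By list, those above 0 were 16 of 24 other p53 targets (66.7%), beside 74.3% of the members and 49.6% of all tested genes. They were 7 of 19 genes of the p53 family, kinases and cofactors, 8 of 19 other death genes and 4 of 8 other survival genes. Of 24 other p53 targets 1 rose, 1 fell and 22 did not pass, with a median log2 fold change of 0.06, and 7 lay higher (29.2%, beside 24.1% of all tested genes) and 3 lower (12.5%, beside 24.0%) without overlap. Ak1, an adenylate kinase, rose from 19.0 and 20.3 FPKM to 28.2 and 31.0 FPKM (log2 fold change 0.57, adjusted p = 0.0482 in limma). Trp53i11, a p53-induced gene, fell from 36.8 and 39.6 FPKM to 23.3 and 24.7 FPKM (log2 fold change -0.65, adjusted p = 0.0392 in limma). Over 13 alternative settings the call was lost in 9 for Ak1 (adjusted p 0.0137 to 0.273 in limma) and in 7 for Trp53i11 (0.00738 to 0.224), both without control 2 or either deficient library and, for Ak1, without control 1. Cdkn1a, the p21 inhibitor of cyclin-dependent kinases and the classical arrest target of p53, was listed at 294.0 and 265.6 FPKM in the controls and 342.7 and 300.9 FPKM in the deficient libraries, without overlap (log2 fold change 0.20, SE 0.11, adjusted p = 0.419 in limma). Perp, a p53 and p63 target of desmosomes, overlapped at 955.6 and 738.2 FPKM against 878.7 and 738.2 FPKM, and the sign of its difference turned under quantile normalization (log2 fold change -0.06 and 0.02).

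Upstream of the members, of 19 genes for the p53 family, its kinases and cofactors, 0 passed in limma. None had an unadjusted p under 0.05, a share that was 17.4% over all tested genes. Their median was -0.04, and 0 lay higher and 7 lower (36.8%, beside 24.0% of all tested genes) without overlap. Trp63, the epidermal relative of p53, was among those 7, at 76.1 and 68.1 FPKM in the controls and 64.2 and 60.6 FPKM in the deficient libraries. Of 19 other death genes tested, 0 passed in limma and 2 (10.5%) had an unadjusted p under 0.05 (Bok and Endog, both lower). Their median was -0.02, and 4 lay higher (21.1%) and 3 lower (15.8%) without overlap. Of 8 other survival genes tested, 0 passed in limma and 1 (12.5%) had an unadjusted p under 0.05 (Bcl2l2, higher). Their median was 0.02, and 3 lay higher (37.5%) and 0 lower without overlap. Bok, Endog and Bcl2l2 were named after their values were seen. The authors' deposited table called the same 2 genes, Ak1 higher and Trp53i11 lower, of 71 pathway genes with an adjusted p.

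**Figure D4:**
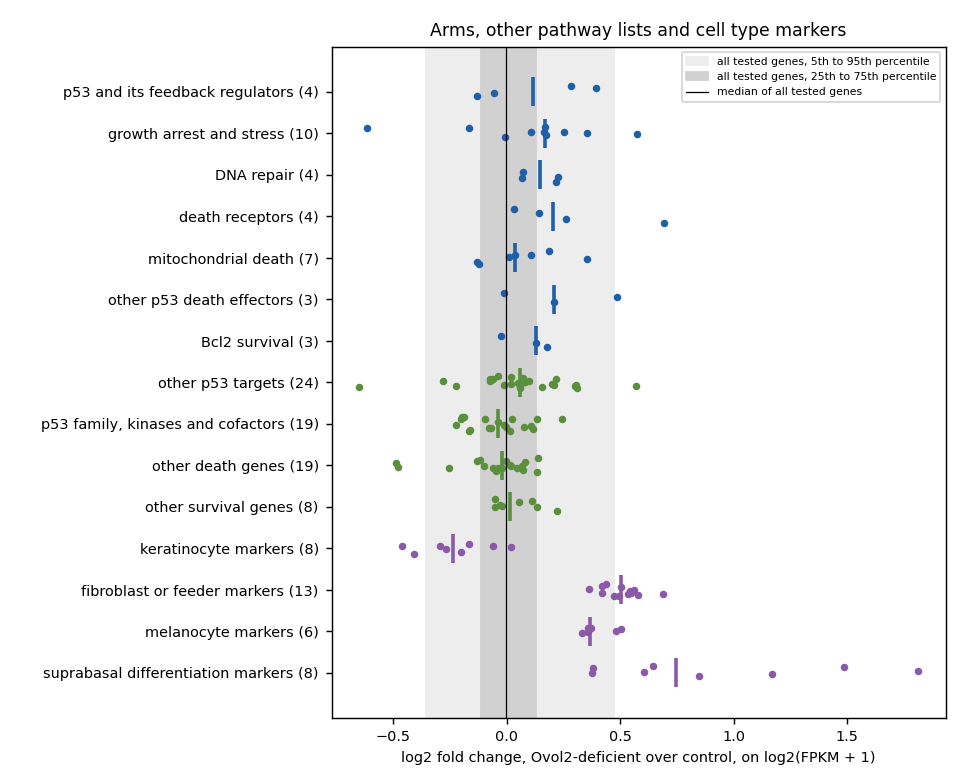
Log2 fold changes of single genes (points) and list medians (bars) for the arms in blue, other pathway lists in green and cell type markers in purple, with the number of genes tested in brackets. Grey bands give the 5th to 95th (-0.36 to 0.47) and 25th to 75th (-0.12 to 0.13) percentiles of all 11350 tested genes; Gadd45a, Fas and Trp53inp1 lie above the outer band, and Gadd45b lies below it. The marker medians are 0.50 for fibroblast or feeder, 0.37 for melanocyte, 0.75 for suprabasal differentiation and -0.24 for keratinocyte.

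The members with the largest positive differences lay near the shift of the fibroblast or feeder markers, whose 13 log2 fold changes ran from 0.36 to 0.69 with a median of 0.50. Mdm2 (0.40), Trp53inp1 (0.48) and Gadd45a (0.58) fall inside that range. Fas (0.693) lies just above its highest marker, Loxl1 (0.688), and Plk3 (0.355), Bid (0.356) and Ccng1 (0.28) lie below the range. Other marker lists shifted by similar or larger amounts. The 6 melanocyte markers tested ran from 0.33 to 0.50 and the 8 suprabasal genes from 0.37 to 1.81. Mdm2 and Trp53inp1 fall inside both of these ranges, Plk3 and Bid inside the melanocyte one, and Gadd45a and Fas inside the suprabasal one. The part of any of these cells in these values was not tested.

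**Figure D5:**
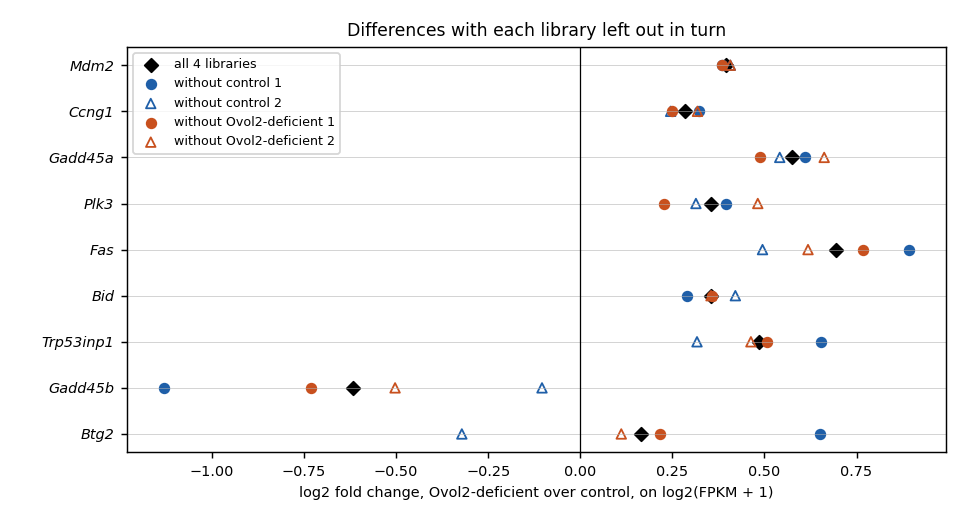
Log2 fold change of 9 members with all 4 libraries (black) and with each library left out in turn, on log2(FPKM + 1). Mdm2 stays between 0.38 and 0.41, while Gadd45b runs from -1.13 to -0.10 and Btg2 from -0.32 to 0.65, in both cases with the extremes given by leaving out control 1 or control 2.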

How the data were processed

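Per the labels' protocols, cDNA was amplified at full length and tagmented with a Nextera kit. No strand is stated, so reads of overlapping antisense genes cannot be separated. TopHat, HTSeq and the mm10 build are named in the submitters' processing notes. FPKM values of the 4 libraries were deposited, made with a tool that the labels and file headers do not name. The authors' deposited comparison holds a mean normalized signal, a log2 fold change with its SE, a test score, and p-values. Its adjusted values are quoted as the authors', and its mean signal was 181.5 (Bcl2l11) to 8685 (Ccng1) for the 35 members.

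Rows with date-like symbols (27) and 1 repeated header line were removed, and rows sharing a symbol were summed. The model was limma 3.58.1 run in R 4.3.3 with a variance trend and a term for group. It was fitted to log2(FPKM + 1) of genes whose mean was 1 FPKM or more. In simulated data, with independent noise drawn from the variances limma fitted, it recovered 32.1% of 1.5-fold, 87.4% of 2-fold and 99.5% of 4-fold changes. Of its calls there, 4.40% were false. A gene that did not pass may therefore still differ by 1.5-fold. The simulation held no deviations shared between libraries, so its shares need not hold for the real libraries. Fold changes on log2(FPKM + 1) understate changes of low genes. Folds are ratios of mean FPKM. FPKM gives no total counts, so the depth of each library is unknown. In genes under 0.5 FPKM, the commonest ratio to control 1 was 0.94, 0.86 and 0.92 in control 2 and Ovol2-deficient libraries 1 and 2. Ovol2-deficient libraries 1 and 2 are numbered as the mutant columns of the deposited table. Between any pair of libraries 5 to 13 of 11350 values were identical.

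The members and lists were chosen with earlier results of these data known. All 36 listed genes are named, and of other pathway genes Cdkn1a, Trp63, Perp and up to 2 called per direction and list. One gene of that rule is not reported here. Tigar and Cop1 were matched by older symbols. Positions are from GENCODE M21. Alternatives were pseudocounts of 0.1 and 0.5, minimum means of 0.1 or none, quantile and median scaling, limma without a trend or with robust estimation, a replicate block, and each library left out, with the same genes tested.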

Additional observations from a re-analysis of the deposited data

How the results depend on the processing

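Over 13 alternatives for each of 35 members, 422 of 455 values kept their direction and side of the threshold, and 21 members kept their sign in all 13. Part of this was fixed in advance. Changing the minimum mean, variance trend, robust estimation or replicate block leaves the log2 fold change as it was, so its sign cannot turn. With 34 of 35 members not called in the main fit, those could change side only by gaining a call. The count of members called higher was 1 with the main settings, where 153 genes were called in all. It was 0 with a minimum mean of 0.1 FPKM (8 called over all genes) and with no minimum (3). It was also 0 under quantile normalization (5), under median scaling (87) and without a variance trend (6). With robust estimation it was 4 (Mdm2, Gadd45a, Fas and Trp53inp1), where 461 genes were called in all. With the library number as a replicate block it was 3 (Mdm2, Gadd45a and Fas). The labels do not say what the numbers stand for. Deviations of same-numbered libraries correlated at 0.22 across genes, and with 2 pairs this does not settle whether they are paired. Over all genes the block moved the calls from 153 to 518. With 1 library left out, the calls among members and other pathway genes depended on the library, and so did the number called over all genes. Under quantile normalization 0 pathway genes were called higher and 0 lower. Under quantile normalization and median scaling 2 members, not 1, were lower without overlap.

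With 1 library left out, medians ran from 0.12 to 0.23 for arrest and stress, 0.14 to 0.18 for repair, 0.175 to 0.237 for death receptors, 0.066 to 0.349 for the other effectors, -0.00928 to 0.0764 for mitochondrial death, 0.086 to 0.164 for survival, 0.10 to 0.20 for p53 and its regulators and 0.096 to 0.164 for all members. The sign turned for 14 members, only where a library was left out: Trp53 (-0.308 to 0.0467), Mdm4 (-0.25 to 0.15), Gadd45g (-0.43 to 0.10), Sesn1 (-0.0532 to 0.40), Btg2 (-0.32 to 0.65), Ddit4 (-0.11 to 0.10), Ddb2 (-0.0941 to 0.24), Casp8 (-0.0845 to 0.15), Bbc3 (-0.330 to 0.0649), Bax (-0.00595 to 0.0764), Pmaip1 (-0.13 to 0.34), Apaf1 (-0.00928 to 0.0324), Aen (-0.0580 to 0.0361) and Bcl2 (-0.13 to 0.09). Of the other named genes, for which the same 13 settings were chosen after seeing the data, Perp (-0.246 to 0.126) turned sign in the same way, and also under quantile normalization (0.0244). The cause was not tested. A group left with 1 library is assumed to vary like the other.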
